A study of Mus musculus with 12 samples.

Results

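Gene expression was compared between 2 replicate sets of cultured cerebellar granule cells: set 2, the 4 arrays whose titles carry the replicate number 2, and set 3, the 4 arrays whose titles carry the number 3. Each set held 1 array for each lentiviral construct, namely the calcium channel β4 subunit splice variants β4a, β4b and β4e, and eGFP, the control protein. Arrays were paired by construct, so the comparison used 8 of the 12 arrays of the series. The remaining 4 arrays, with the number 1, are called set 1 and are given as values only. A probe set (the group of probes that reads 1 transcript) entered when 3 or more of the 12 arrays gave it a log2 value above 4. This kept 23044 of 45101 probe sets, after the AFFX controls of the array maker had been left out.

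All groups came from lethargic mice on the 129/SvJ background, a line whose Cacnb4 gene, which encodes that β4 subunit, is mutated, so the controls carried the mutation as well. Neurons of postnatal day 7 were plated, exposed to the virus for 12 h, given Ara-C, which stops dividing cells, and lysed after 9 days in vitro. The cultures are primary and mixed, and which promoter drove the constructs is not given in the sources used here. Apart from the number, the labels give no difference between set 2 and set 3. The labels do not say whether the number stands for a litter, a culture, a day or a round of array processing. If the arrays of a set came from 1 culture, each set is 1 culture. The p-values below then rest on the spread between the 4 construct pairs, which limma moderates with that of all probe sets tested. They do not measure the spread between cultures.

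Cerebellar granule cells are small glutamatergic neurons that are born after birth from progenitors held in cycle by Sonic hedgehog. As they mature they switch off genes of migrating neurons and switch on a characteristic set of receptor subunits, among them the GABA-A subunits encoded by Gabra6 and Gabrd and the NMDA receptor subunit encoded by Grin2c, which takes over from the subunit encoded by Grin2b. Calcium entry through NMDA receptors and voltage-gated channels induces immediate early transcription factors such as Fos and Npas4, which in turn raise effectors such as Bdnf. Cultures of this kind also hold some GABAergic interneurons, glia, microglia, fibroblasts and cells of the choroid plexus.

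The values were log2 intensities made with GCRMA, and array medians lay between 3.84 and 3.90. Correlations over the tested probe sets were 0.990 to 0.996 within set 2, 0.989 to 0.996 within set 3, and 0.970 to 0.980 between the sets. Of the sum of squares over the 8 arrays, 64.6% lay between the sets, 21.7% between constructs and 13.7% in the residual. In the limma fit with construct as a block, 8386 of 23044 probe sets (36.4%) passed an adjusted p of 0.05. Of these, 4230 (18.4%) were higher and 4156 (18%) lower in set 2. A log2 difference of at least 1 was reached by 508 probe sets (2.2%) that were higher and 687 (2.98%) that were lower. Left out in turn, the construct pairs moved these counts over 1.5 times in places: without the β4a pair 2599 were higher and 2695 lower, and without the β4b pair 2655 were higher. With fewer arrays the test has less power, and the number passing fell whichever pair was left out, to between 5294 and 6659. A call lost without a pair, here and below, therefore need not depend on that construct. With 1 probe set per gene, 4094 of 10983 genes (37.3%) passed, 2246 (20.4%) were higher and 1848 (16.8%) lower, with a median difference of 0.03, and the 4 arrays of set 2 did not overlap the 4 of set 3 in 4251 genes (38.7%). These shares are the background against which each gene list below is read, and a gene is called higher or lower only where it passed.

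**Figure D1:**
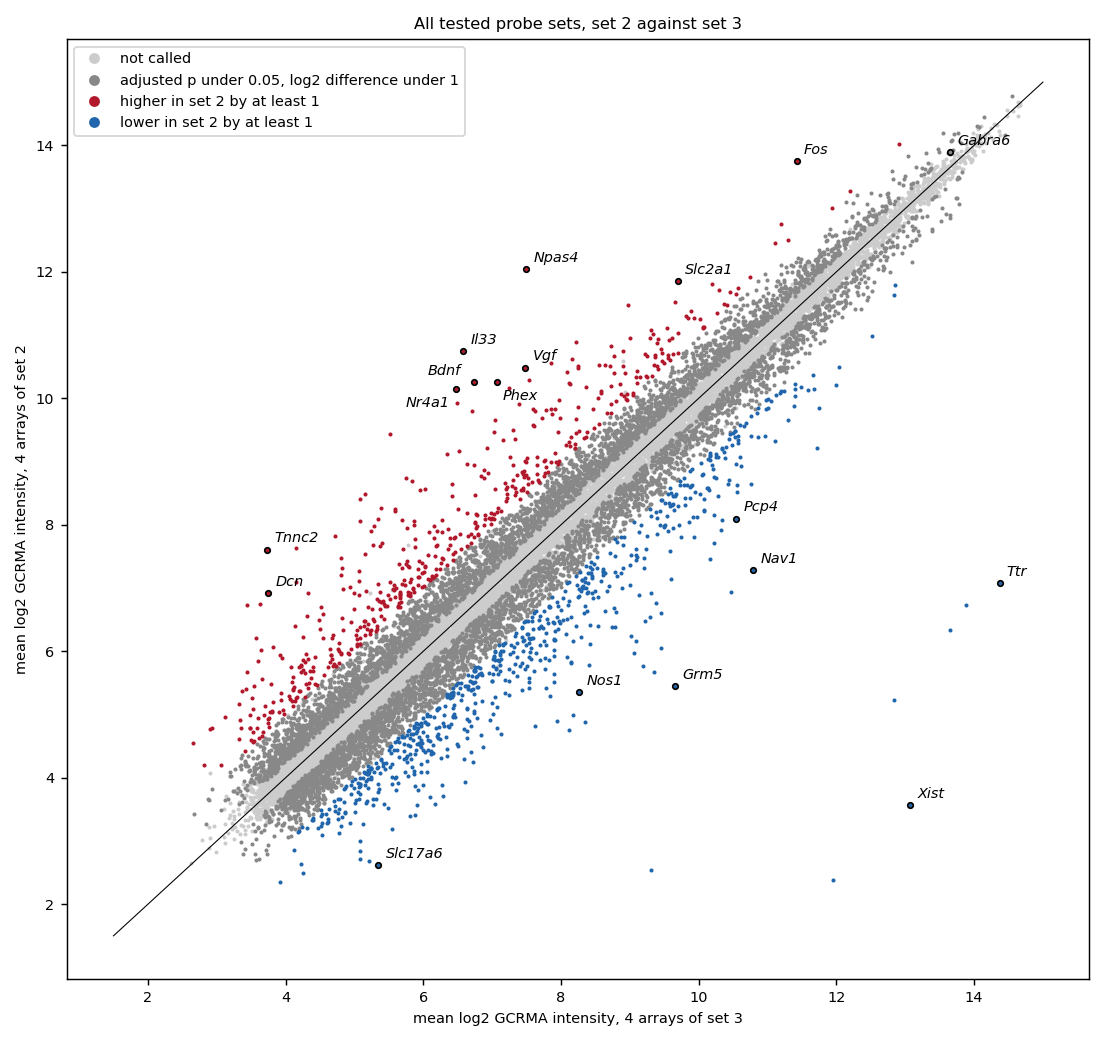
Mean log2 GCRMA intensity of each tested probe set in the 4 arrays of set 2 (vertical axis) against the 4 arrays of set 3 (horizontal axis), with the line of equality. Red and blue points passed the test with a log2 difference of at least 1, dark grey points passed with a smaller one, and Xist and Ttr lie farthest below the line among the named genes.

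Some controls of the array differed between the sets. The 3′ probe set for 18S ribosomal RNA read 9.00 to 9.54 in set 2, against 11.7 to 12.6 in set 3 (9.64 to 11.6 in set 1). The 3′ minus 5′ difference for Actb, a measure of RNA integrity, was 0.85 to 1.02 in set 2 and 0.85 to 0.96 in set 3. For Gapdh it was 0.05 to 0.12 in set 2 and −0.05 to 0.07 in set 3, higher in set 2 in all 4 pairs. The bioB control, bacterial target added at hybridisation, read 7.70 to 9.41 in set 2 and 7.73 to 8.17 in set 3. The part of these controls in the results below was not tested.

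Cacnb4, the mutated gene, was high in all arrays. It read 12.01, 11.96, 11.80 and 11.87 in set 2, against 12.24, 12.10, 12.09 and 12.15 in set 3, where the 4 values of a set are given here and below in the order eGFP, β4a, β4b, β4e. The difference was −0.24 ± 0.07 (adjusted p = 0.0468, lost on leaving out any pair, adjusted p up to 0.134, other probe sets −0.48 and −0.22). Each difference is set 2 minus set 3 on the log2 scale. With it stand its standard error and the adjusted p of the limma fit, in which the variance is moderated across probe sets. Brackets name the construct pairs without which a call was lost. They also give the differences at other probe sets of the gene where any of these was under 0.5 or over 1.5 times the size or of the other sign. Only probe sets that passed the filter were compared in this way, so dim probe sets of a gene may differ without a bracket. Where all 8 values of a gene are given, the sets did not overlap unless stated. Genes named as the largest differences over the whole array had to have no overlap, so for them it adds no support. For Cacnb4 the eGFP array was the highest of the 4 in each set. Which part of the transcript this probe set reads was not examined here.

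Transcripts linked to the sex chromosomes gave the widest gap of all. Xist, the RNA that coats the inactive X chromosome of female cells, read 3.57, 3.60, 3.69 and 3.44 in set 2, against 13.13, 12.995, 12.99 and 13.16 in set 3. The sets did not overlap, and set 2 lay below the level of 4 used in the filter, as did set 1 (mean 3.78). The difference was −9.50 ± 0.09 (adjusted p = 3.43e-07), and the 2 other probe sets for Xist gave −9.58 and −6.77. Genes of the Y chromosome were expressed in both sets and higher in set 2: Kdm5d, a histone demethylase, read 7.14, 7.41, 7.35 and 7.42 in set 2, against 5.86, 6.31, 6.07 and 5.85 in set 3, and the difference was 1.31 ± 0.09 (adjusted p = 0.000566). Uty differed by 0.97 ± 0.10 (other probe sets 0.21 to 0.56) and Eif2s3y by 0.61 ± 0.07. Their X-linked partners Kdm5c and Kdm6a were lower in set 2, at −0.56 ± 0.08 (other probe sets −0.30 to −0.01) and −0.40 ± 0.09 (lost without eGFP, β4a or β4b, adjusted p up to 0.0609; other probe sets −1.05 and −0.22). For all of these genes the values of set 2 stood on one side of those of set 3. By these transcripts the sets differed in sex make-up: Xist, of female cells, was high in set 3 alone, and Y-linked transcripts were present in both.

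The granule cell label was borne out in both sets. Gabra6 averaged 13.89 ± 0.01 in set 2 and 13.65 ± 0.06 in set 3, and the Cbln1, Cbln3 and Neurod1 transcripts were above 13 in each array. Of 18 mature granule cell markers tested, 6 (33.3%) were higher and 2 (11.1%) lower in set 2, with a median difference of 0.07. The markers that were higher belong mostly to the receptor and transporter set of mature cells. Gabrd, the delta subunit of extrasynaptic GABA-A receptors, read 10.51, 10.39, 10.49 and 10.18 in set 2, against 9.66, 9.57, 9.40 and 9.75 in set 3, a difference of 0.80 ± 0.12 (adjusted p = 0.00428). Grin2c read 10.64, 10.49, 10.16 and 10.58 in set 2, against 9.88, 9.76, 9.62 and 9.95 in set 3, a difference of 0.66 ± 0.08 (adjusted p = 0.00209). In both genes every array of set 2 lay above every array of set 3. Slc17a7, the vesicular glutamate transporter VGLUT1, differed by 0.57 ± 0.11, and Kcnk1, a two-pore potassium channel, by 0.50 ± 0.07. Reln, the secreted protein reelin, was lower, at −0.65 ± 0.08. So was the chloride exporter Slc12a5, at −0.36 (lost without eGFP, β4a or β4e, adjusted p up to 0.0669). Gabra6 itself differed by 0.24 ± 0.07 (lost on leaving out any pair, adjusted p up to 0.147; other probe set 0.01). The summed level of the list, as log2 of the summed intensities, was 17.1 to 17.3 in set 2 and 17.1 to 17.2 in set 3.

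Genes of immature and migrating neurons were lower in set 2. Of 28 tested, 14 (50%) were lower and 1 (3.57%) higher, with a median difference of −0.26. Dcx, the doublecortin of migrating neurons, read 4.54, 4.42, 4.32 and 4.06 in set 2, against 6.88, 6.06, 5.91 and 6.55 in set 3, a difference of −2.01 ± 0.18 (adjusted p = 0.000894). The 4 arrays of set 2 were close to the filter level, and those of set 3 did not overlap them. Among the others, Nnat differed by −1.66 ± 0.12, Dpysl3 by −1.54 ± 0.17, Astn1, an adhesion protein used in migration along glia, by −1.46 ± 0.08, and Stmn1, a microtubule-destabilising protein, by −1.37 ± 0.14. Nnat was near background in set 2. Stmn2 and Gap43 did not pass. Tubb3 was the member that was higher, at 0.46 ± 0.10 (lost without β4a or β4b, adjusted p up to 0.0656).

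Transcription factors of the granule lineage showed the same tilt, with 13 of 32 (40.6%) lower and 5 (15.6%) higher. Insm1, a zinc finger factor of newborn neurons, read 7.56, 5.89, 6.08 and 6.62 in set 2, against 9.17, 7.48, 7.69 and 8.25 in set 3, a difference of −1.61 ± 0.07 (adjusted p = 0.000163). Set 2 was lower in every pair by nearly the same amount, although the ranges over constructs overlapped. The chromatin organiser Satb1 differed by −1.53 ± 0.11 (other probe sets −0.95 and −0.64), and the SoxC factors Sox4 and Sox11, which also stand in the immature neuron list, by −1.48 ± 0.16 (other probe sets −1.22 and −0.50) and −1.34 ± 0.12. Pax6 differed by −0.56 ± 0.07, while Zic1 (mean 14.23 ± 0.06 in set 2 and 14.37 ± 0.03 in set 3) did not pass. On the higher side were Mef2c, an activity-dependent factor, at 1.29 ± 0.17 (other probe sets 0.44 to 1.27), Bcl6 at 0.92 ± 0.12 and Uncx at 0.86 ± 0.11.

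Among 12 progenitor and Sonic hedgehog genes, 4 were lower and 4 higher, or 2 higher without the eGFP pair. Mycn, the proto-oncogene of dividing granule progenitors, read 3.04, 3.41, 3.41 and 3.20 in set 2, against 5.47, 4.90, 5.04 and 5.08 in set 3, a difference of −1.86 ± 0.16 (adjusted p = 0.000868, other probe sets −0.29 and −0.09). All arrays of set 2 were below 4 for Mycn. Prom1 differed by −1.62 ± 0.09 and Ccnd2, a D-type cyclin, by −1.12 ± 0.19. Another D-type cyclin, Ccnd1, was higher, at 0.51 (adjusted p = 0.00705 in the limma fit, other probe sets 0.25 and 0.85). The hedgehog receptors Boc and Ptch1 were on the higher side, at 0.72 ± 0.09 (other probe set 0.22) and 0.33 ± 0.09 (lost on leaving out any pair, adjusted p up to 0.103). Of 18 cell cycle genes, 10 were lower, among them Rrm2 at −1.04 ± 0.18 and Mcm6 at −0.83 ± 0.12, and 3 were higher, with Ccne2 at 0.66 ± 0.08. The number lower ranged from 5 to 8 when a pair was left out, lowest without the eGFP pair.

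Markers of GABAergic interneurons were lower in set 2. Of 10 tested, 8 (80%) were lower and 1 (10%) higher, with a median of −0.89, and the median was negative within each construct pair, from −1.44 for β4a to −0.64 for β4b. Slc32a1, the vesicular GABA transporter, read 7.33, 6.35, 6.80 and 6.86 in set 2, against 8.58, 8.58, 8.16 and 8.51 in set 3, a difference of −1.63 ± 0.17 (adjusted p = 0.00146). No array of set 2 reached the level of any array of set 3. Kit, the receptor carried by molecular layer interneurons, differed by −1.70 ± 0.16, and the factors Tfap2b and Tfap2a, used in GABAergic fate, by −1.56 ± 0.18 and −1.44 ± 0.14. Of the GABA-synthesising enzymes, Gad1 differed by −0.61 ± 0.10 (other probe set −1.61) and Gad2 by −0.45 ± 0.09 (other probe set −0.92). Lgi2 was higher, at 1.79 ± 0.15 (other probe set 0.63), and Pvalb did not pass. The summed level of the list was 12.6 to 12.9 in set 2 and 13.1 to 13.5 in set 3. In bulk RNA, fewer cells of a type and less RNA per cell cannot be told apart, here and for each cell type below.

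Of 8 Purkinje cell markers, 4 were lower and 0 higher in the limma fit. Counts of 0 in this and the lists below stood at an unadjusted p under 0.05 too, except 1 sodium or HCN channel gene and 1 Notch gene that were then higher and 3 ribosomal protein genes that were then lower. Pcp4, a calmodulin-binding protein, read 7.86, 8.19, 7.72 and 8.61 in set 2, against 10.98, 10.39, 10.35 and 10.47 in set 3, a difference of −2.45 ± 0.20 (adjusted p = 0.000776). Car8 differed by −1.38 ± 0.23, and it and Calb1 were near background in set 2. The summed level of the list was 12.58 to 12.99 in set 2 and 12.97 to 13.10 in set 3. Of 6 markers of unipolar brush and deep nuclei neurons, Slc17a6, the vesicular glutamate transporter VGLUT2, was the 1 lower, and 2 were higher. It read 2.69, 2.32, 2.89 and 2.58 in set 2, against 5.90, 4.97, 5.12 and 5.40 in set 3, a difference of −2.73 ± 0.16 (adjusted p = 0.000310), with set 2 near background. Irx3 was higher at 2.66 ± 0.16.

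**Figure D2:**
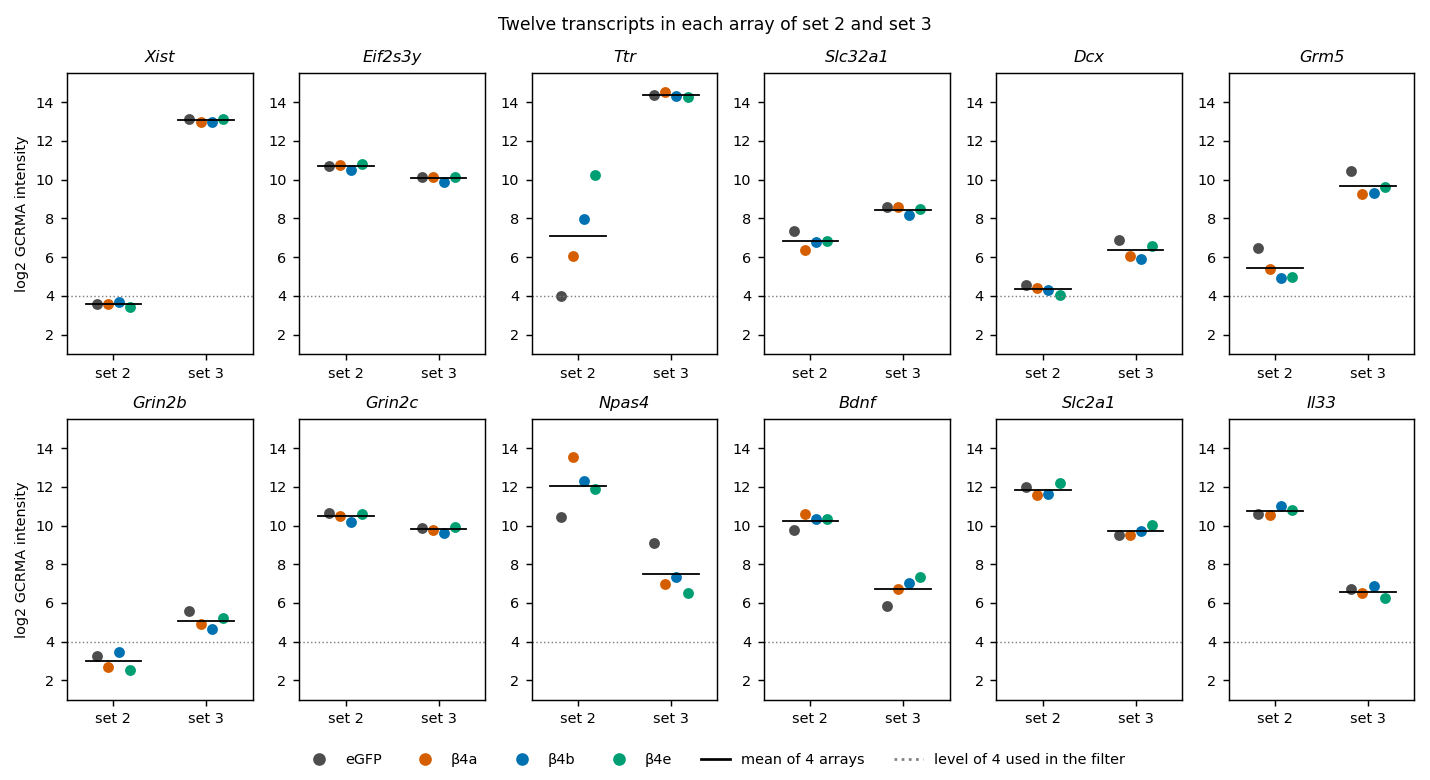
Log2 GCRMA intensity of 12 transcripts in each array, set 2 left and set 3 right in each panel, coloured by construct, with the mean of 4 arrays as a bar and the filter level of 4 as a dotted line. Xist, Ttr, Slc32a1, Dcx, Grm5 and Grin2b stand higher in set 3, and Npas4, Bdnf, Slc2a1 and Il33 stand higher in set 2. Another tested probe set for Grin2b, not shown, differed by −0.05.

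The choroid plexus transcript Ttr, which encodes the thyroid hormone carrier transthyretin, read 4.00, 6.06, 7.97 and 10.27 in set 2, against 14.35, 14.53, 14.34 and 14.25 in set 3, a difference of −7.29 ± 0.95 (adjusted p = 0.00297). The arrays of set 2 were spread widely, lowest for eGFP and highest for β4e, while those of set 3 lay together and above them all. The 3 other probe sets for Ttr gave −7.60 to −7.15. In set 1 it read 14.14, 12.61, 10.82 and 11.79. Of 6 choroid plexus and ependymal markers, 5 were lower and 0 higher, and their summed level was 7.74 to 10.44 in set 2 and 14.27 to 14.55 in set 3. Sostdc1 differed by −1.65 ± 0.15, the potassium channel Kcnj13 by −1.26 ± 0.16 and the folate receptor Folr1 by −0.79 ± 0.15, all near background in set 2, and Otx2 by −0.38 ± 0.10 (lost without eGFP, β4b or β4e, adjusted p up to 0.103).

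Glial lists moved in different directions. Of 22 oligodendrocyte lineage genes, 11 (50%) were higher and 1 (4.55%) lower. Mag, a myelin adhesion protein, read 7.38, 7.35, 7.65 and 7.52 in set 2, against 6.48, 6.47, 6.65 and 6.54 in set 3, a difference of 0.94 ± 0.07 (adjusted p = 0.000635), with no overlap of the sets. Bcas1 differed by 1.23 ± 0.12, Apod by 1.07 ± 0.12 (other probe set 0.41) and Ermn by 0.95 ± 0.11. Mbp differed by 0.26 ± 0.08 (lost on leaving out any pair, adjusted p up to 0.125; other probe sets −0.21 to 0.66). The precursor marker Pdgfra, at 3.82 ± 0.33 in set 2 and 3.85 ± 0.34 in set 3, was near background in both. The summed level of the list was 14.79 to 14.98 in set 2 and 14.40 to 14.66 in set 3.

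Of 20 microglia and macrophage markers, 10 (50%) were lower and 0 higher. The number lower was 5 without the β4a pair and reached 13 at most. Cd14, the co-receptor for lipopolysaccharide, read 5.69, 5.78, 6.06 and 5.93 in set 2, against 6.59, 7.35, 7.43 and 7.00 in set 3, a difference of −1.23 ± 0.12 (adjusted p = 0.00136). Csf1r differed by −1.06 ± 0.07 (other probe sets −0.25 and −0.22) and C1qa by −0.80 ± 0.15. The summed level was 13.6 to 14.1 in set 2 and 13.9 to 14.4 in set 3, so the ranges overlapped.

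Astrocyte and Bergmann glia markers varied among constructs. Their median difference was −0.00040 for eGFP, −0.59 for β4a, −0.67 for β4b and 0.26 for β4e. Of 32 tested, 7 (21.9%) were lower and 2 (6.25%) higher, and the number lower was 3 without the β4b pair and 13 at most. Gdf10, a Bergmann glia factor, read 3.79, 4.54, 4.32 and 4.83 in set 2, against 5.26, 6.78, 6.59 and 5.83 in set 3, a difference of −1.74 ± 0.22 (adjusted p = 0.00289). Id4 differed by −1.59 ± 0.17 and the water channel Aqp4 by −0.94 ± 0.18 (other probe sets −1.79 and −0.84). Gfap, at 10.87 ± 0.45 in set 2 and 11.52 ± 1.17 in set 3, and Slc1a3 did not pass. The 2 members that were higher, Lcn2 at 1.11 ± 0.14 and Serpina3n at 0.80 ± 0.21 (lost without eGFP or β4e, adjusted p up to 0.105), are also acute-phase genes. The summed level of the list was 15.73 to 16.33 in set 2 and 15.53 to 16.65 in set 3.

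Fibroblast and meningeal genes split, with 6 of 21 higher and 7 lower, or 4 lower without the β4b pair. Dcn, the matrix proteoglycan decorin, read 6.97, 6.81, 6.85 and 7.03 in set 2, against 3.49, 4.18, 3.78 and 3.56 in set 3, a difference of 3.16 ± 0.16 (adjusted p = 0.000216), with set 3 near background. Lox, which cross-links collagen, read 7.94, 7.94, 7.67 and 8.40 in set 2, against 5.05, 5.55, 5.37 and 5.15 in set 3, a difference of 2.71 ± 0.17 (adjusted p = 0.000394). In both genes the sets were far apart. Bgn and Ccn2 differed by 1.07 ± 0.20 and 1.08 ± 0.27 (lost without eGFP, adjusted p 0.0868). On the lower side Igfbp2 differed by −1.74 ± 0.26 and Postn by −1.17 ± 0.15. The collagen genes Col1a1 and Col3a1 did not pass. The median difference of the list was −0.27 and −0.39 for β4a and β4b but 0.22 for both eGFP and β4e, and the summed level was 11.74 to 12.31 in set 2 and 11.34 to 12.32 in set 3.

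Of 5 endothelial and pericyte markers tested, 1 was lower, as was the only erythroid gene tested.

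**Figure D3:**
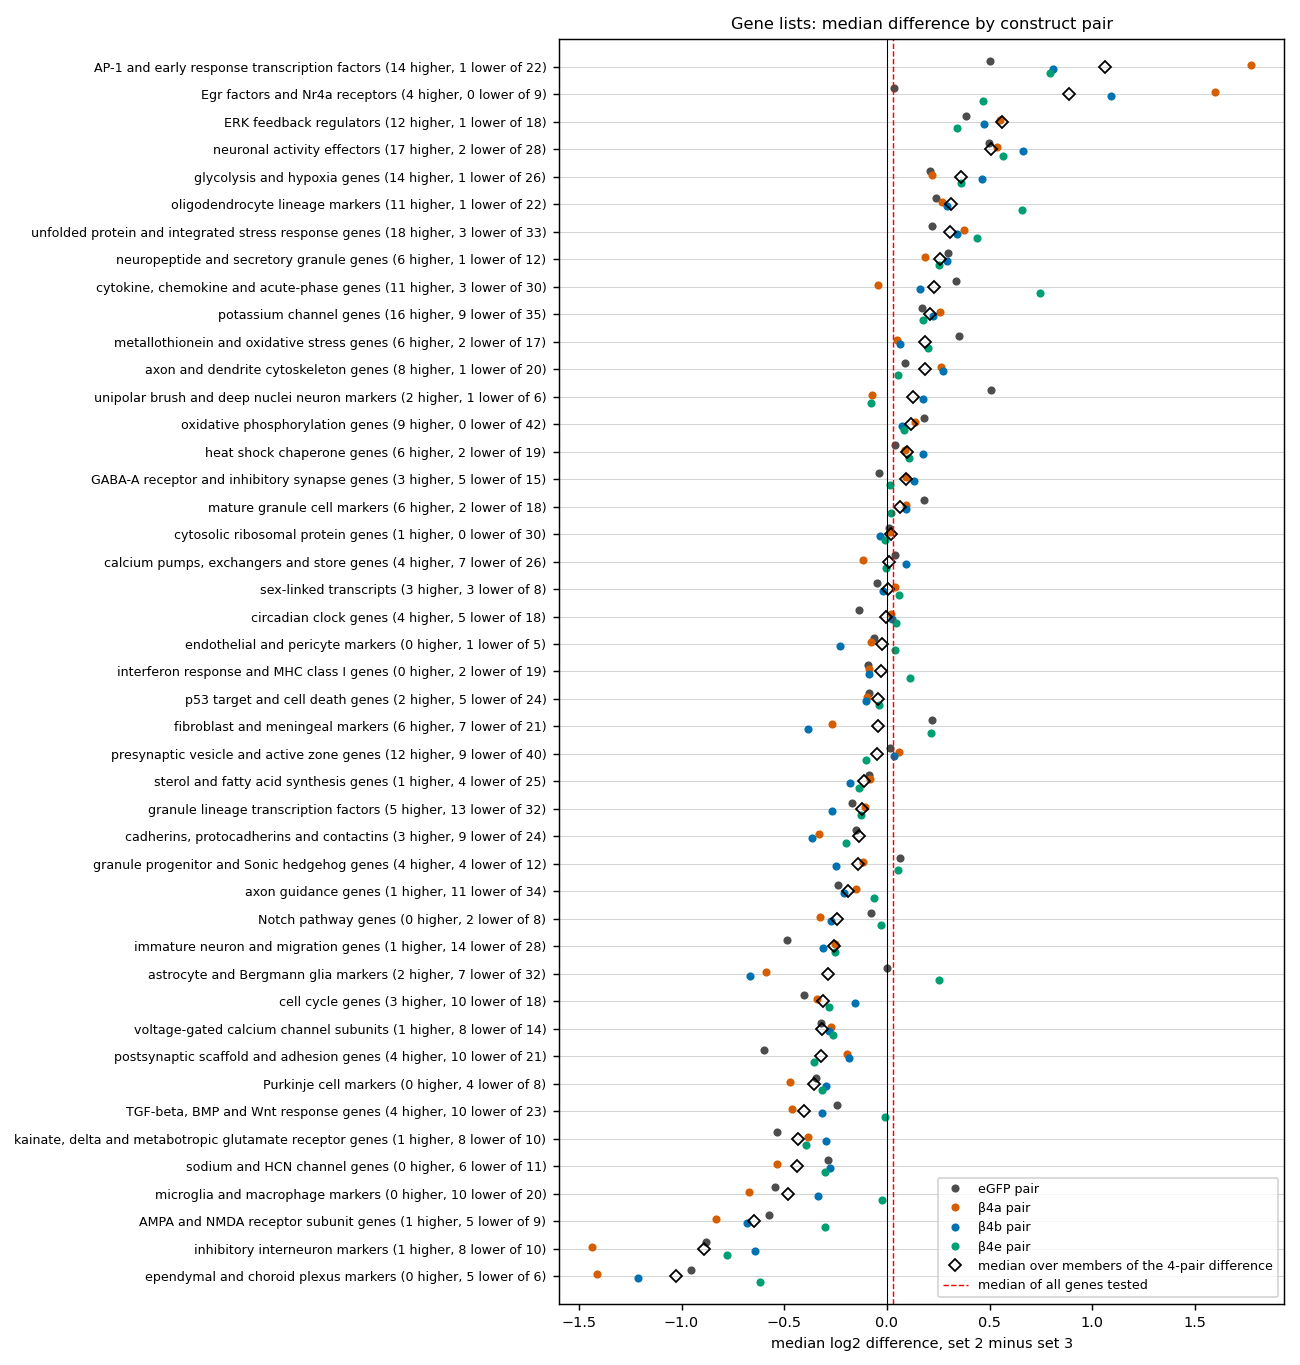
Median log2 difference (set 2 minus set 3) of each gene list with at least 5 tested genes, as an open diamond for the fit over 4 pairs and as coloured points for each construct pair, with the median of all genes as a dashed line. The 4 activity lists lie at the top, and the 4 lowest are the choroid plexus, interneuron, AMPA and NMDA receptor, and microglia lists.

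The activity-regulated programme was higher in set 2. Of 22 AP-1 and early response factors, 14 (63.6%) were higher and 1 (4.55%) lower, with a median difference of 1.06. Of 28 neuronal activity effectors, 17 (60.7%) were higher and 2 (7.14%) lower, with a median of 0.51. Of 9 Egr factors and Nr4a receptors 4 were higher and 0 lower, and of 18 feedback regulators of the ERK pathway 12 were higher and 1 lower. The ERK count was 5 without the β4b pair and 9 at most. Within the eGFP, β4a, β4b and β4e pairs, the median of the AP-1 list was 0.50, 1.77, 0.81 and 0.79. For Egr factors and Nr4a receptors it was 0.03, 1.60, 1.09 and 0.47, so their eGFP pair hardly differed. The medians of effectors (0.50 to 0.66) and ERK regulators (0.34 to 0.55) varied less between pairs.

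The promoters of the 3 transcription factors with the largest differences in these lists are shown with TGACG, the core of the cyclic AMP response element, which is bound by CREB, a factor that calcium signalling activates. Each runs 5′ to 3′ over 250 bases before and 50 after the transcription start, from RefSeq on GRCm38.p6, with TGACG on either strand (CGTCA when read on the other) in capitals.
Npas4, chr19:4989922-4990221, minus strand: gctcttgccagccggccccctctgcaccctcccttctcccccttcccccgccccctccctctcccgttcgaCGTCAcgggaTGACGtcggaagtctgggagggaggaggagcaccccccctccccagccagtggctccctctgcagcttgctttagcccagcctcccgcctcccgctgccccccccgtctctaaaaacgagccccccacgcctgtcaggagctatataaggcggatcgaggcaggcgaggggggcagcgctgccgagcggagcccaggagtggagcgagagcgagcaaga
Nr4a1, chr15:101266596-101266895, plus strand: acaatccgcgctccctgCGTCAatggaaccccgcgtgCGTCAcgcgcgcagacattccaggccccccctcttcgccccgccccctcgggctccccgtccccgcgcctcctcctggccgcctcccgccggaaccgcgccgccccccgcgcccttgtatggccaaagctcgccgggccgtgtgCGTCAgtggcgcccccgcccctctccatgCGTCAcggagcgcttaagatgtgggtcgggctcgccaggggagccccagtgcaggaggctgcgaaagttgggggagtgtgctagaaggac
Nr4a3, chr4:48045055-48045354, plus strand: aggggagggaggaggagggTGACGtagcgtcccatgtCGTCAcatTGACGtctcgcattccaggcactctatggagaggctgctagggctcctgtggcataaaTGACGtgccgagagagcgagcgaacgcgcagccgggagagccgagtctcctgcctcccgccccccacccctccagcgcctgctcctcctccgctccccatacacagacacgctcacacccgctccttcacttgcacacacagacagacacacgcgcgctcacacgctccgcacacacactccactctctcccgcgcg
TGACG occurred 2 times in the Npas4 window, 4 times in that of Nr4a1 and 4 times in that of Nr4a3. Of 32851 promoter windows of 300 bases, 20.8% held TGACG at least once and 1.03% held it 3 times or more. The full element TGACGTCA, in 1.79% of windows, and the CArG box bound by serum response factor, in 1.63%, were in none of these 3. Bdnf had 7 windows, of which 1 held TGACG. A match of letters describes the window and does not show that a factor binds there.

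Npas4, a neuron-specific factor induced by calcium, read 10.43, 13.55, 12.27 and 11.90 in set 2, against 9.11, 6.98, 7.35 and 6.52 in set 3, a difference of 4.55 ± 0.79 (adjusted p = 0.00725), or 23.4-fold. The sets did not overlap, but the eGFP pair differed least, by 1.32, against 6.57 for β4a. Fos, the AP-1 subunit, read 12.97, 14.49, 13.90 and 13.62 in set 2, against 12.09, 11.22, 11.08 and 11.31 in set 3, a difference of 2.33 ± 0.37 (adjusted p = 0.00534), and its eGFP pair differed by 0.88. The orphan receptor Nr4a1 read 8.26, 12.04, 10.17 and 10.12 in set 2, against 6.86, 6.08, 6.36 and 6.59 in set 3, a difference of 3.68 ± 0.65 (adjusted p = 0.00778). It followed the same order, with the narrowest gap in the eGFP pair (1.40) and the widest in β4a (5.96). Nr4a3 differed by 2.99 ± 0.30 (adjusted p = 0.00134, other probe set 0.26).

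Among the other early factors, Fosl2, an AP-1 subunit, read 10.37, 10.29, 9.94 and 10.29 in set 2, against 7.68, 8.30, 7.81 and 8.72 in set 3, a difference of 2.10 ± 0.17 (adjusted p = 0.000786), with all pairs apart by more than 1 log2 unit. Csrnp1 differed by 2.16 ± 0.25 and Ier3 by 2.13 ± 0.24, and Fosb by 2.23 ± 0.58 (lost without β4b, adjusted p 0.0899) from a level near background in set 3. Junb, at 6.92 ± 1.83 in set 2 and 5.23 ± 0.16 in set 3, did not pass (1.69 ± 0.66, adjusted p = 0.0903), nor did Egr1 (0.47 ± 0.35, adjusted p = 0.329). Egr3 differed by 1.10 ± 0.16 and Ier5 was lower, at −0.62 ± 0.08.

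When all 12 arrays were fitted with the replicate block, the spread of set 1 entered the error, and several of these calls were lost. Adjusted p was then 0.101 for Npas4, 0.124 for Fos, 0.0507 for Nr4a1, 0.113 for Nr4a3, 0.1002 for Fosb and 0.545 for Egr3, and 0.0880 for Dusp4, 0.224 for Per1 and 0.249 for Per2, which follow below. Outside these lists the same fit lost Ptch1 (0.213), Tubb3 (0.0576), Calb1 (0.0667) and Otx2 (0.0731) among the genes named here. In set 1, Npas4 read 3.02, 13.77, 12.89 and 3.20, and Fos read 8.62, 14.15, 14.17 and 8.52. The β4a and β4b arrays of set 1 were thus above every array of set 3 for both genes, and its eGFP and β4e arrays below.

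Among the effectors, Bdnf, the neurotrophin, read 9.75, 10.60, 10.33 and 10.35 in set 2, against 5.85, 6.74, 7.02 and 7.36 in set 3, a difference of 3.51 ± 0.17 (adjusted p = 0.000202). Vgf, a secreted neuropeptide precursor, read 11.11, 10.47, 10.30 and 10.06 in set 2, against 7.23, 7.13, 7.44 and 8.14 in set 3, a difference of 3.002 ± 0.30 (adjusted p = 0.00132). For both, each pair differed by at least 1.92 and the sets did not overlap. Gadd45b, a stress and demethylation factor, differed by 2.32 ± 0.18, Nrn1, the membrane-bound neuritin, by 1.56 ± 0.14, and Rgs2, a regulator of G protein signalling, by 1.49 ± 0.13 (other probe sets 1.85 and 2.25). Arc, the synaptic plasticity protein, did not pass (0.86 ± 0.37, adjusted p = 0.115). Lingo1 and Syt4 were lower, at −1.10 ± 0.07 (other probe set −0.54) and −0.72 ± 0.08. Among ERK feedback genes the phosphatase Dusp4 differed by 1.502 ± 0.20, Spry2 by 0.98 ± 0.10 (other probe set 0.33) and Errfi1 by 0.98 ± 0.11. Dusp1 differed by 2.45 ± 0.61 (lost without β4b or β4e, adjusted p up to 0.0744).

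**Figure D4:**
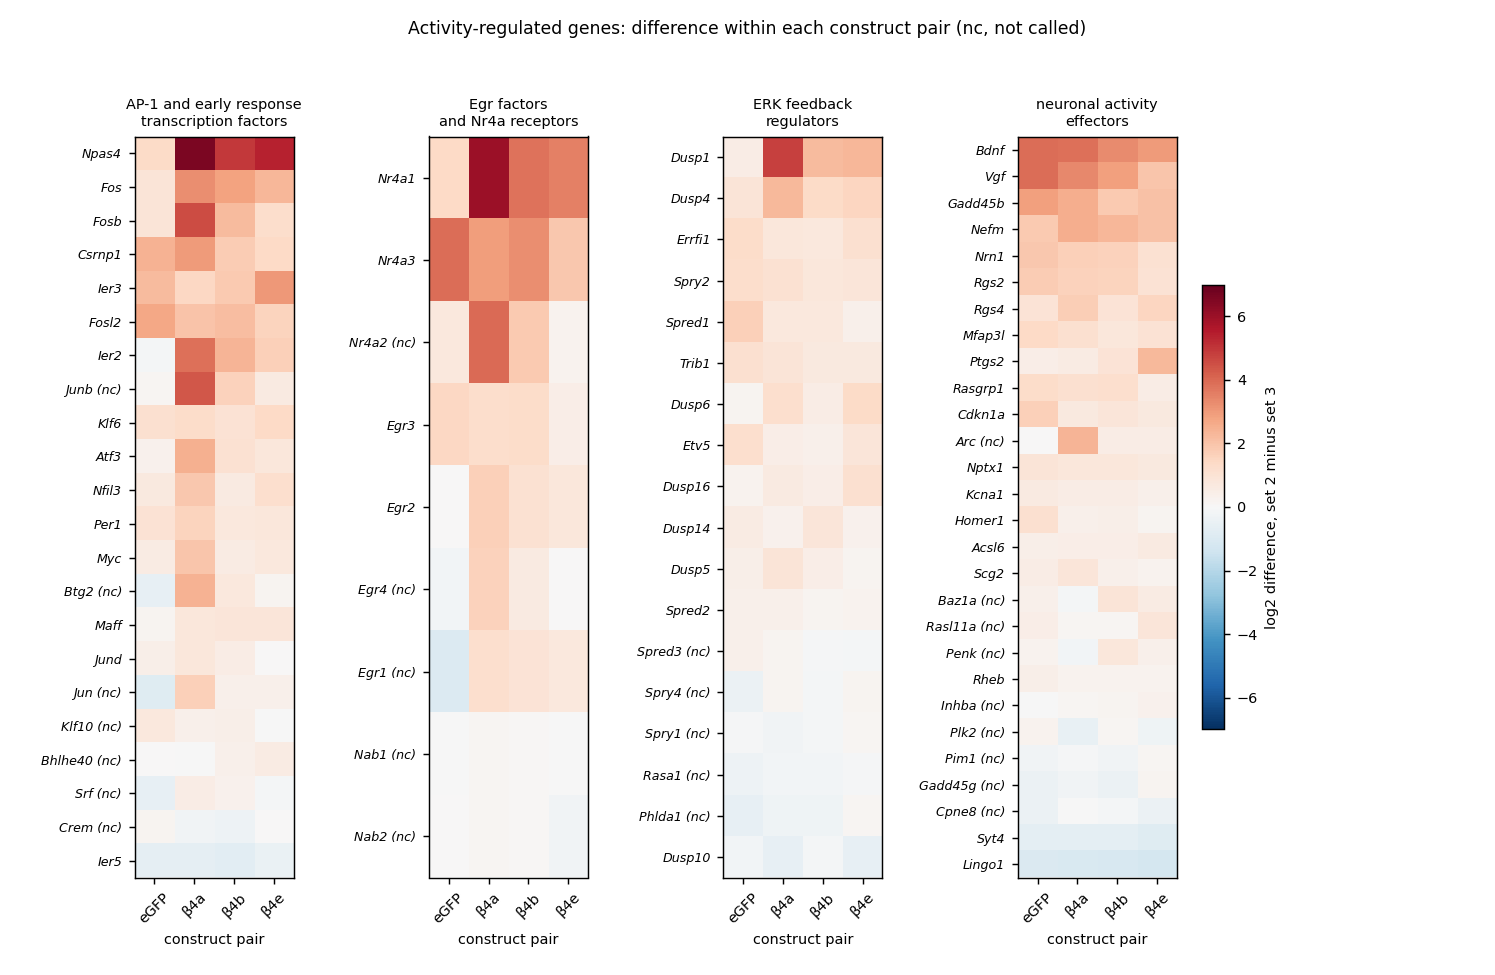
Log2 difference, set 2 minus set 3, within each construct pair (columns) for all tested members of the 4 activity lists (rows, sorted by the difference over 4 pairs), with nc marking genes that did not pass. The β4a column is darkest for Npas4, Nr4a1, Fosb, Junb and Dusp1, and Bdnf and Gadd45b are more even.

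Glutamate receptor genes were mostly lower in set 2. Of 10 kainate, delta and metabotropic receptor genes, 8 (80%) were lower and 1 (10%) higher, and the number lower was 4 without the eGFP pair and 5 at most. In 4 of these 10 genes set 2 alone was near background. Of 9 AMPA and NMDA receptor genes, 5 (55.6%) were lower and 1 (11.1%) higher. The lower ones included Cacng2, an auxiliary subunit of AMPA receptors, at −0.65 (other probe sets −0.11 and 0.02). Cacng2 was also counted in the calcium channel list below. Grm5, the group I metabotropic receptor mGluR5, read 6.46, 5.41, 4.94 and 4.98 in set 2, against 10.46, 9.27, 9.32 and 9.60 in set 3, a difference of −4.21 ± 0.14 (adjusted p = 0.000123). Every array of set 2 was well below every array of set 3. Grm3 differed by −2.01 ± 0.14, with set 2 near background, and Grik2 by −0.54 ± 0.08, whereas Grm4, a presynaptic receptor of granule cells, was higher at 0.55 ± 0.09.

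Grin2b, the juvenile NMDA receptor subunit, read 3.27, 2.67, 3.49 and 2.54 in set 2, against 5.58, 4.89, 4.64 and 5.22 in set 3, a difference of −2.09 ± 0.24 (adjusted p = 0.00200, other probe set −0.05), with set 2 below the filter level. The other probe set for Grin2b averaged 4.72 in set 2 and 4.77 in set 3, so the tested probe sets of this gene disagreed. The AMPA receptor subunits Gria3 and Gria2 differed by −1.32 ± 0.15 and −0.64 ± 0.07 and Grin3a by −0.82 ± 0.14 (other probe set −1.25). With Grin2c higher, the NMDA receptor subunits thus differed in both directions.

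Of 14 voltage-gated calcium channel genes, 8 (57.1%) were lower and 1 (7.14%) higher. The number lower was 5 without the β4b pair. Cacna1d, the pore subunit of the L-type channel Cav1.3, read 7.70, 6.75, 6.86 and 6.84 in set 2, against 9.46, 8.73, 7.92 and 8.70 in set 3, a difference of −1.67 ± 0.16 (adjusted p = 0.00117). Its sets did not overlap. The auxiliary subunits Cacna2d3 and Cacna2d2 differed by −1.09 ± 0.13 and −0.80 ± 0.11, and the L-type pore subunit Cacna1c by −0.41 ± 0.08. Cacna1a, Cacna1b and Cacna1e, the pore subunits of P/Q-, N- and R-type channels, did not pass (−0.09 ± 0.08, adjusted p = 0.375, 0.21 ± 0.08, adjusted p = 0.0815 and −0.15 ± 0.07, adjusted p = 0.171). The list also counted Cacng5, Cacng4 and Cacng2, which encode auxiliary subunits of AMPA receptors. Cacng5 was higher, at 1.08 ± 0.23 (lost without eGFP or β4b, adjusted p up to 0.0595). Cacng4 was lower, at −0.83 (lost without some pairs, adjusted p up to 0.0533, other probe set −0.28), as was Cacng2. Among pumps, exchangers and stores, 7 of 26 were lower and 4 higher, with the exchangers Slc8a1 at −1.28 ± 0.15 (other probe set −0.28) and Slc24a3 at −1.28 ± 0.13, and the store sensor Stim1 at 0.67 ± 0.08.

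Potassium channel genes differed in both directions, with 16 of 35 (45.7%) higher and 9 (25.7%) lower. Kcnq3, a subunit of the M-type channel, read 9.50, 10.13, 10.08 and 10.17 in set 2, against 7.40, 8.13, 8.13 and 8.21 in set 3, a difference of 2.00 ± 0.07 (adjusted p = 0.000153). Kcnip4, a subunit of A-type channels, read 7.79, 7.81, 8.17 and 8.46 in set 2, against 5.27, 5.75, 6.14 and 6.32 in set 3, a difference of 2.19 ± 0.10 (adjusted p = 0.000202, other probe sets 0.45 and 1.37). In neither gene did the sets overlap. Kcna4 was higher at 1.85 ± 0.15, with set 3 near background, and Kcnip2 at 1.41 ± 0.10. The lower side held Kcnma1, the BK channel, at −1.34 ± 0.16 (other probe sets −1.22 to −0.35), its partner Kcnmb4 at −0.99 ± 0.09, and Dpp6 at −1.21 ± 0.13 (other probe set −0.40).

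Of 11 sodium and HCN channel genes, 6 were lower and 0 higher. Scn3b, a beta subunit, read 3.99, 3.74, 4.08 and 3.45 in set 2, against 6.003, 5.11, 5.26 and 5.05 in set 3, a difference of −1.54 ± 0.14 (adjusted p = 0.00107), with set 2 near background. Scn3a, the embryonic pore subunit, differed by −1.09 ± 0.08 and the leak channel Nalcn by −1.04 ± 0.09. Scn1a and Scn2a did not pass. In the GABA and glycine list, 5 of 15 were lower and 3 higher, against 3 and 1 without the β4a pair. Glra2, the fetal glycine receptor subunit, read 3.85, 3.32, 3.44 and 3.004 in set 2, against 6.39, 5.57, 5.56 and 5.71 in set 3, a difference of −2.40 ± 0.11 (adjusted p = 0.000202), again with set 2 below 4. Slc12a2, the chloride importer NKCC1 of young neurons, differed by −0.70 ± 0.10 (other probe sets −1.13 and −0.33) and the exporter Slc12a5 by −0.36 ± 0.08 (lost without eGFP, β4a or β4e, adjusted p up to 0.0669).

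**Figure D5:**
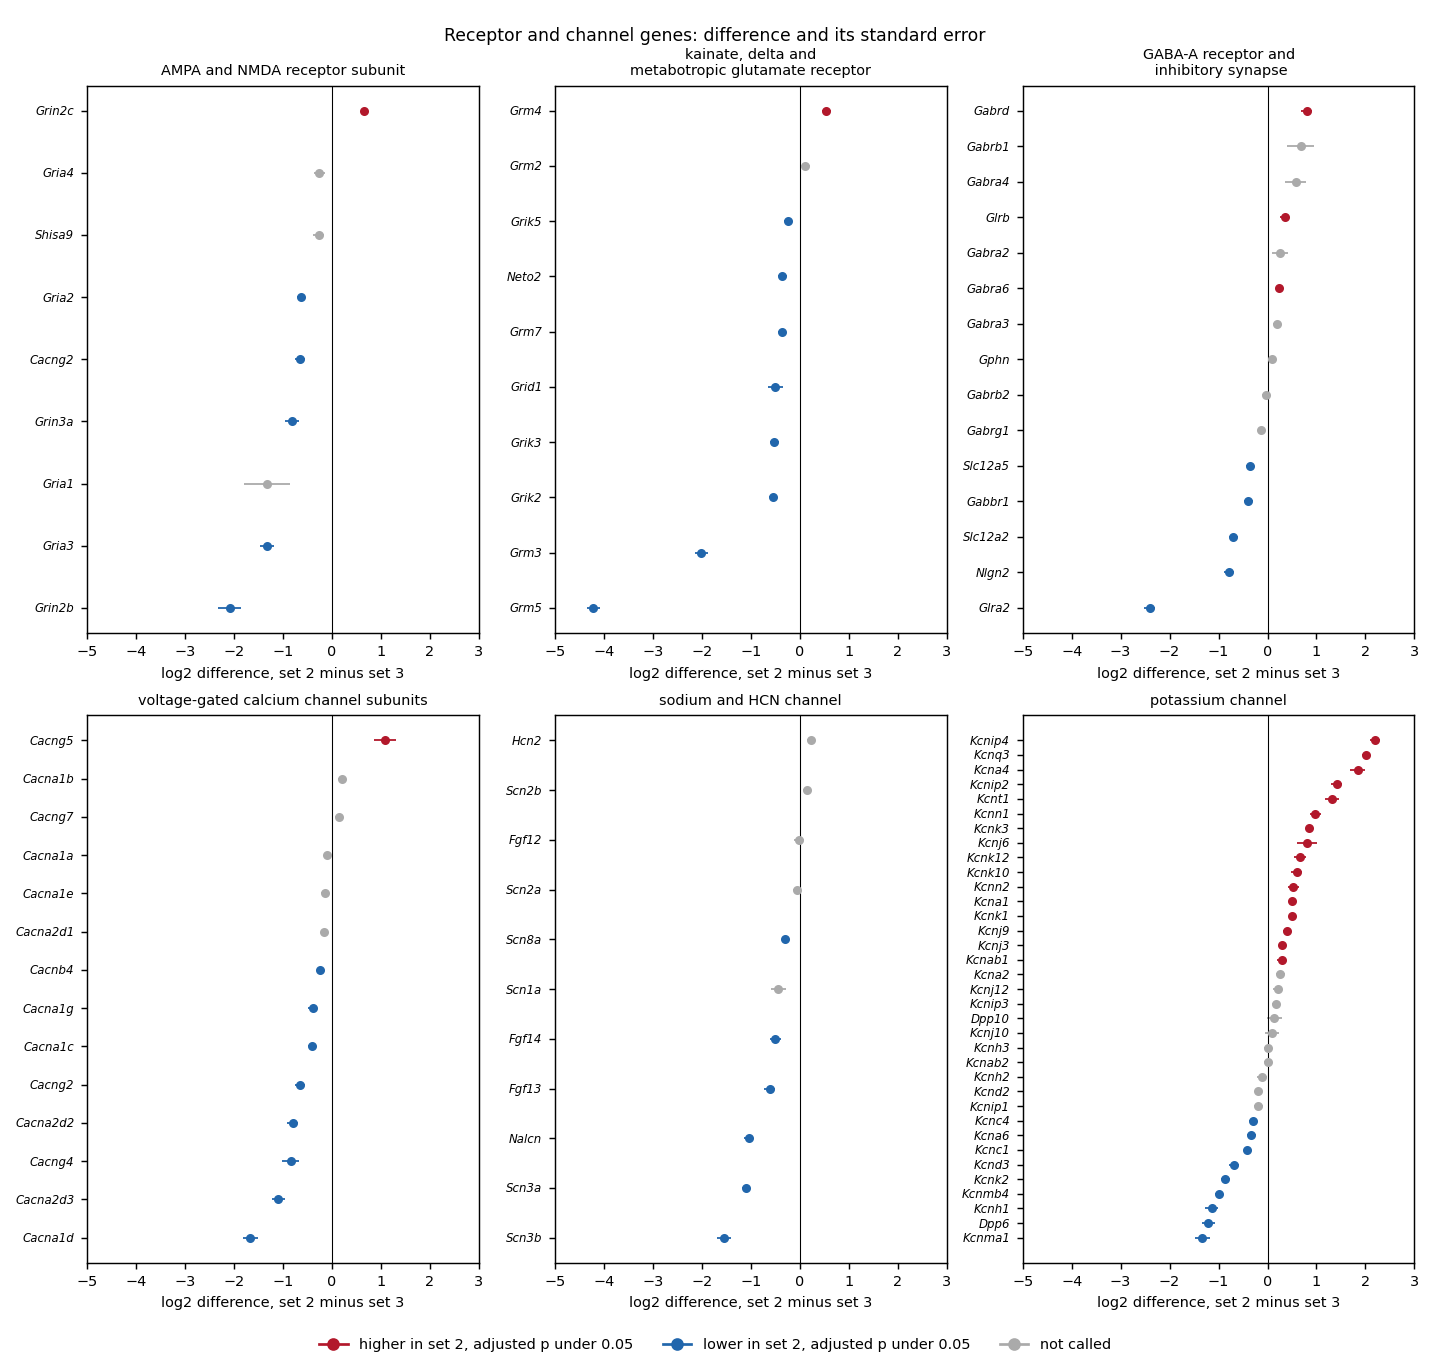
Log2 difference, set 2 minus set 3, with its standard error for each tested receptor and channel gene, red where higher and blue where lower in set 2 at an adjusted p under 0.05, grey where not called. Grm5 is the lowest point, and the potassium channel panel is the one with the most genes on the higher side.

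Of 21 postsynaptic scaffold and adhesion genes, 10 (47.6%) were lower and 4 higher. Nlgn1, the adhesion protein of excitatory synapses, read 5.52, 5.76, 5.86 and 5.42 in set 2, against 8.20, 7.81, 7.62 and 7.96 in set 3, a difference of −2.26 ± 0.16 (adjusted p = 0.000571). The ranges of the sets were well apart. Lrrtm4 and Lrrtm1 differed by −1.45 ± 0.08 and −1.75 ± 0.30 and the scaffold Dlg4 (PSD-95) by −0.72 ± 0.11 (other probe set −2.04). Lrrtm4 was near background in set 2. Shank3 and Dlgap1 were higher, at 1.02 ± 0.10 and 0.74 ± 0.07.

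Of 40 presynaptic genes, 12 (30%) were higher and 9 (22.5%) lower, and 7 higher without the β4a pair and 5 lower without the eGFP pair. Syn3, a synapsin of young neurons, read 6.48, 4.97, 4.66 and 5.05 in set 2, against 8.85, 7.59, 7.12 and 7.80 in set 3, a difference of −2.55 ± 0.09 (adjusted p = 0.000143, other probe set −1.09), with no overlap. Vamp1 was higher at 1.37 ± 0.15 and Rims3 at 1.33 ± 0.18. Syt1 and Bsn did not pass. Among 12 neuropeptide and secretory granule genes, 6 were higher and 1 lower. Chga and Chgb, the chromogranins that pack dense-core granules, differed by 1.56 ± 0.14 and 0.65 ± 0.07.

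Of 34 axon guidance genes, 11 (32.4%) were lower and 1 (2.94%) higher. Unc5d and Unc5c, netrin receptors used in neuronal migration, differed by −2.33 ± 0.15 and −1.49 ± 0.09 and Plxnc1, a semaphorin receptor, by −2.14 ± 0.11 (other probe set −0.61). Unc5d was near background in set 2. Robo1, Robo2, Slit2 and Epha4 did not pass. Of 24 cadherins and contactins, 9 were lower and 3 higher (1 without the β4a pair), with Cdh6 at −1.13 ± 0.12 and Pcdh7 at 0.96 ± 0.12.

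Of 20 cytoskeleton genes, 8 (40%) were higher and 1 (5%) lower, and 3 were higher without the β4a pair. Nefm, the medium neurofilament, which also stands in the effector list, read 8.93, 10.07, 10.18 and 10.03 in set 2, against 7.12, 7.52, 7.87 and 7.98 in set 3, a difference of 2.18 ± 0.13 (adjusted p = 0.000349). Tubb4a, a tubulin of mature axons and myelinating cells, read 8.98, 8.78, 8.73 and 8.97 in set 2, against 6.85, 6.61, 6.86 and 7.18 in set 3, a difference of 1.99 ± 0.09 (adjusted p = 0.000202). Both were separated in all pairs. Ina differed by 0.56 ± 0.08, while Map2 and Mapt did not pass.

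Of 33 genes of the unfolded protein and integrated stress responses, 18 (54.5%) were higher and 3 (9.09%) lower, with 12 higher without the β4b pair and 1 lower without the β4a pair. Mthfd2, a mitochondrial folate enzyme under the control of ATF4, read 8.64, 8.24, 8.25 and 7.77 in set 2, against 5.39, 5.78, 5.30 and 5.89 in set 3, a difference of 2.63 ± 0.22 (adjusted p = 0.000790, other probe set 1.19). Ddit3 (CHOP) differed by 1.16 ± 0.09, Asns, asparagine synthetase, by 0.95 ± 0.11, Sdf2l1 by 1.33 ± 0.16 and Atf4 by 0.59 ± 0.08. For Mthfd2 no array of set 2 fell to the level of set 3.

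Of 26 glycolysis and hypoxia genes, 14 (53.8%) were higher and 1 (3.85%) lower, with 8 higher without the β4b pair. Slc2a1, the glucose transporter GLUT1, read 12.01, 11.57, 11.65 and 12.18 in set 2, against 9.51, 9.54, 9.73 and 10.00 in set 3, a difference of 2.16 ± 0.11 (adjusted p = 0.000233), with no overlap. Ndrg1 differed by 1.17 ± 0.17 (other probe sets 0.28 to 0.58), Vegfa by 0.95 ± 0.07 and Adm by 1.20 ± 0.10, while Ldha did not pass. Adm was near background in set 3. Oxidative phosphorylation genes were high in both sets, and 9 of 42 (21.4%) were higher and 0 lower, with 3 higher without the β4a pair. The 42 differences ran between −0.31 and 0.46. Of 30 ribosomal protein genes, 1 was higher and 0 lower.

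Of 17 metallothionein and oxidative stress genes, 6 were higher and 2 lower, with 3 higher in each fit that left out a pair. Mt1 and Mt2 differed by 1.08 ± 0.17 and 1.08 ± 0.18 and Srxn1 by 1.15 ± 0.18 (other probe sets 0.39 and 0.83). Of 19 chaperones, 6 were higher and 2 lower, and 2 higher without the eGFP pair. The factor Hsf2 read 3.78, 4.15, 3.78 and 3.82 in set 2, against 6.42, 6.27, 6.17 and 6.21 in set 3. The difference was −2.39 ± 0.10 (adjusted p = 0.000163), with set 2 near background, while Dnajb1 was higher at 0.57 ± 0.07 (other probe set 0.11). Among 24 p53 and cell death genes, 5 were lower and 2 higher. Bcl2l11, which encodes the pro-death protein BIM, read 8.74, 7.39, 8.12 and 6.97 in set 2, against 10.01, 10.12, 9.82 and 9.79 in set 3, a difference of −2.13 ± 0.27 (adjusted p = 0.00286, other probe sets −1.89 to −0.38). Bcl2, a survival factor, was higher at 1.21 ± 0.13, and Cdkn1a at 0.97 (adjusted p = 0.00839 in the limma fit). Mdm2, Bbc3 and Pmaip1 did not pass.

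Of 30 cytokine and acute-phase genes, 11 (36.7%) were higher and 3 (10%) lower. Il33, an alarmin released by damaged cells, read 10.61, 10.54, 11.03 and 10.79 in set 2, against 6.72, 6.499, 6.86 and 6.24 in set 3, a difference of 4.16 ± 0.12 (adjusted p = 7.01e-05). Set 1, with a mean of 10.75, stood with set 2. Saa3 differed by 1.86 ± 0.25 and Cxcl1 by 1.57 ± 0.19 (other probe sets 0.60 and 2.44), while Cxcl12, a chemokine that holds granule progenitors at the surface, was lower at −2.06 ± 0.19. Of 19 interferon genes, 0 were higher and 2 lower, or 0 lower without the eGFP pair, and of 25 sterol and fatty acid synthesis genes 1 was higher and 4 lower, or 2 lower without the β4b pair.

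Of 23 TGF-beta, BMP and Wnt genes, 10 (43.5%) were lower and 4 (17.4%) higher, and 1 was higher without the β4e pair. Wif1, a Wnt inhibitor, read 3.32, 3.39, 3.43 and 3.48 in set 2, against 5.76, 6.12, 5.89 and 5.75 in set 3, a difference of −2.48 ± 0.10 (adjusted p = 0.000163), with set 2 near background. Id1, a target of BMP signals, differed by −1.79 ± 0.29, and Wnt7a was higher at 0.83 ± 0.11. Of 8 Notch pathway genes, 2 were lower, with Notch2 at −1.43 ± 0.15. Circadian genes were split, with 4 of 18 higher and 5 lower. Per3 differed by −2.39 ± 0.10 (other probe sets −1.53 to 0.02), and the clock output factors Dbp and Tef by −1.25 ± 0.19 and −1.16 ± 0.09. Per1 and Per2, which are also induced by activity, were higher at 1.03 ± 0.15 and 0.83 ± 0.07 (other probe set 0.16).

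The largest differences over the whole array included genes outside the lists. On the higher side, Pdgfc, a platelet-derived growth factor, read 9.29, 10.24, 10.18 and 9.98 in set 2, against 5.70, 6.78, 6.98 and 6.48 in set 3, a difference of 3.43 ± 0.09 (adjusted p = 5.53e-05). Phex, an endopeptidase best known from bone, read 9.87, 10.52, 10.31 and 10.29 in set 2, against 6.34, 6.77, 7.503 and 7.70 in set 3, a difference of 3.18 ± 0.21 (adjusted p = 0.000434). Both were higher in every pair, which follows from the rule that named only genes without overlap. Cd300lb averaged 7.64 in set 2 and 4.15 in set 3, a difference of 3.49 (adjusted p = 0.000413 in the limma fit). Camk1d, a calcium/calmodulin-dependent kinase, differed by 2.85 ± 0.12, Enc1 by 2.92 ± 0.19, Rapgef5 by 2.97 ± 0.14 and Pde1c, a calmodulin-dependent phosphodiesterase, by 3.09 ± 0.16 (other probe sets 0.73 to 2.14). From near background in set 3, Tnnc2, a troponin C, differed by 3.88 ± 0.66 and the small GTPase Gem by 3.29 ± 0.32.

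On the lower side, Nav1, neuron navigator 1, which guides growing neurites, read 7.73, 7.12, 6.88 and 7.41 in set 2, against 10.997, 10.84, 10.70 and 10.62 in set 3, a difference of −3.51 ± 0.13 (adjusted p = 0.000163, other probe sets −3.53 to −0.87). Nos1, the neuronal nitric oxide synthase, read 6.40, 4.57, 5.41 and 5.05 in set 2, against 9.01, 8.18, 7.80 and 8.04 in set 3, a difference of −2.90 ± 0.20 (adjusted p = 0.000485). Neither gene overlapped between the sets, which the rule for naming them required. Ly6h differed by −3.46 ± 0.12, Tenm2, a teneurin adhesion protein, by −3.40 ± 0.17 (other probe sets −2.75 and −0.77), Fxyd6 by −3.04 ± 0.26, Smarcd3, a subunit of the BAF chromatin remodelling complex, by −2.76 ± 0.11, and Oprl1, the nociceptin receptor, by −2.80 ± 0.10 (other probe set −0.80). Txnip, an inhibitor of thioredoxin and of glucose uptake, differed by −2.93 ± 0.22.

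The mean of set 1 was 10.61 for Grm5, 10.93 for Nav1, 9.44 for Nos1 and 7.14 for Slc17a6, each above the means of both other sets. For Dcn, at 8.42, it stood above set 2. For Pdgfc, at 6.42, it was close to set 3, while the arrays of set 1 were spread for Phex, at 5.74, 9.56, 7.96 and 6.31. These are values, and no test was made of them.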

How the data were processed

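RNA of 12 samples was hybridised to Affymetrix arrays, 1 array per sample, after 3′ IVT labelling with biotin. Per the submitters' processing notes the authors used GCRMA, which corrects background by probe sequence, normalizes between arrays and gives 1 log2 intensity per probe set. The GCRMA version is not given in the sources used here, and the deposited log2 values were used as they stand. GEO's platform annotation gave 1 gene symbol for 34945 probe sets, several for 932 and none for 9160, and no gene was named from a probe set with several.

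Probe sets above 4 in at least 3 of the 12 arrays were tested with limma 3.58.1 in R 4.3.3, with construct as a block, on the 8 arrays of replicate numbers 2 and 3 (3 residual degrees of freedom). P-values were adjusted by Benjamini-Hochberg over 23044 probe sets, and the scripts were tested on simulated data. With 4 pairs an exact sign-flip test of a single gene cannot go below a two-sided p of 0.125, so only the fit across all probe sets was used. A gene was represented by its probe set with the highest mean over 12 arrays. A mean at or below 4 is called near background. The 46 gene lists (859 of 1165 genes tested) and the replicate sets themselves were chosen with earlier results of these data known. Genes named are the largest non-overlapping differences, up to 15 per direction with both set means above 4 and up to 10 with 1 set near background, and, from each list, its first 4 members and up to 6 called members per direction. The Cbln1, Cbln3, Neurod1 and Gap43 transcripts are named outside this rule, chosen after their values were seen. Alternatives changed the filter, the scaling, the block, the variance model, the probe set rule and the arrays used. The number of arrays limits the precision.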

Additional observations from a re-analysis of the deposited data

Results flagged for a closer look

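In each set, the 4 arrays were searched for 1 array far from the other 3, over 92 levels of gene lists and 102 levels of genes. Chance flags about 5% of such groups, and 8 list levels and 6 gene levels stood out. Levels are means of log2 intensity over the members of a list.

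Among lists, the eGFP array of set 2 stood apart in 4. Mature granule cell markers averaged 12.48 in it, against 12.29 to 12.30 in the other arrays of set 2. Presynaptic genes averaged 10.04, against 9.85 to 9.87, and kainate, delta and metabotropic glutamate receptor genes 6.71, against 6.57 to 6.59. Cell cycle genes were lower in it, at 5.46, against 5.79 to 5.82. In the β4e array of set 2, neuropeptide genes averaged 8.96, against 9.09 to 9.11, and in the β4a array of set 2 circadian genes averaged 7.70, against 7.58 to 7.60. In set 3, granule lineage transcription factors averaged 10.25 in the eGFP array, against 10.11 to 10.13, and AP-1 and early response factors 6.96 in the β4e array, against 7.08 to 7.10.

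Among genes, the eGFP array of set 2 was low for Sowahb, at 5.46 against 7.48 to 7.78, and for Hpse, at 4.45 against 5.65 to 5.71. The β4a array of set 2 read 7.08 for Socs2, against 7.56 to 7.64, and 4.15 for Hsf2, against 3.78 to 3.82. In set 3, Tenm2 read 10.04 in the eGFP array, against 9.19 to 9.30, and Cd300lb read 4.54 in the β4a array, against 3.97 to 4.06.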

How the results depend on the processing

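Of 347 named genes that passed, 0 changed sign in any of the settings run, 257 passed whichever construct pair was left out, and 119 passed in every setting. Settings that changed only the block, the variance model, the test, the filter or the use of set 1 could not change a difference. Only rescaling and left-out pairs could have changed a sign. Left-out pairs gave 2599 to 3366 probe sets higher in set 2 and 2695 to 3293 lower. Counts higher and lower were 4227 and 4006 without the construct block, 4403 and 4468 without the filter, 3318 and 2941 among 13581 brighter probe sets, 4460 and 3943 after centring each array on its median, 4351 and 4064 after quantile normalization, and 4534 and 4416 with a trended robust prior. With the replicate block on all 12 arrays they were 3837 and 3617, and 305 of the 347 named genes passed. Testing each probe set alone, without sharing the variance, left 1871 higher (333 by a log2 difference of at least 1) and 1731 lower, and testing against a difference of 0.5 left 447 higher and 612 lower. List medians kept within the spread of the construct pairs in 433 of 458 repeats, and 48 of 456 list counts moved over 1.5 times in settings other than a left-out pair. Of the repeats of medians, those without the construct block and those on all 12 arrays could not move a median. With probe sets above 6 in at least 4 arrays, which tests fewer genes, the median was −0.46 for progenitor and Sonic hedgehog genes, −0.72 for Purkinje cell markers, 0.44 for unipolar brush and deep nuclei markers, −3.84 for choroid plexus markers, 0.88 for activity effectors, 0.66 for ERK feedback regulators, 0.29 for potassium channels, −0.47 for axon guidance, −0.021 for cadherins, −0.17 for cell cycle genes, 0.16 for chaperones and −0.0022 for ribosomal protein genes. With the median over all probe sets of a gene it was −0.073 for sex-linked transcripts, −0.19 for calcium channels, −1.03 for AMPA and NMDA receptors and −0.41 for cadherins, and it turned to −0.034 for the GABA-A list, against 0.09. Leaving out a pair gave medians of 0.51 to 0.60 for effectors, −0.35 to −0.27 for calcium channels, −0.51 to −0.29 for sodium and HCN channels, −0.49 to −0.32 for kainate and metabotropic receptors, −0.42 to −0.12 for postsynaptic genes, 0.19 to 0.29 for neuropeptide genes and −0.084 to −0.025 for p53 and cell death genes. The causes of these shifts were not tested. Genes near background in a set have only a dim signal there, so their differences are less certain than those of bright genes.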
